A study of Homo sapiens with 27 samples.

Results

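The 10 genes described here encode the alpha and beta tubulins that a dividing cell can draw on for its microtubules. They were TUBA1A, TUBA1B, TUBA1C and TUBA4A of the alpha family and TUBB, TUBB2A, TUBB2B, TUBB3, TUBB4B and TUBB6 of the beta family, and they were taken by symbol. They made up 10 of the 18776 genes counted, and 54 of the 93530 transcripts listed. The counts came from RM82, an established Ewing sarcoma cell line, incubated for 1 day with SGC-CLK-1, an inhibitor of the CDC-like kinases that phosphorylate splicing factors, or with the solvent dimethylsulfoxide (DMSO) alone. Each group had 3 libraries of long Oxford Nanopore reads, counted by unique molecular identifier (UMI). Total counts were 666702, 362826 and 373004 in replicates 1 to 3 of the SGC-CLK-1 group, and 416352, 523456 and 372876 in replicates 1 to 3 of the DMSO group. The labels do not say whether the libraries of a group came from separate cultures. The study describes its experiments in general as independently replicated, and p-values here measure the spread between the libraries as deposited. Groups are named by their labels, and every direction rests on them. For FRG2, a gene outside the tubulins, transcript ENST00000645766 had 64, 44 and 60 counts in the SGC-CLK-1 libraries and 96, 88 and 95 in the DMSO libraries, whereas the study's drawing of it has the higher group under the inhibitor. For TLE5, the other gene drawn there, ENST00000221561 had 11, 8 and 7 counts against 10, 10 and 12, and the groups overlapped once scaled. In the drawing, the homotrimer bars under the inhibitor stand at about the heights of these DMSO counts for both genes. Which assignment is right cannot be told from the sources used here, and an exchange of the groups would turn the sign of every difference.

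Of 7 Ewing markers, 6 were counted, led by BCL11B at a mean of 509 CPM (counts per 1000000 counts, scaled by TMM), followed by CD99 at 127 CPM and STEAP1 at 83.9 CPM. PRKCB at 20.3, LIPI at 11.6 and NR0B1 at 7.38 CPM were low, and NKX2-2 was not listed. Their summed level was 729, 777 and 678 CPM with SGC-CLK-1 and 725, 676 and 968 CPM with DMSO. Of 6 plasma cell markers, chosen because a plasma cell line belongs to the same series, only JCHAIN and POU2AF1 were counted, at a summed 2.67 to 10.4 CPM per library. Of the leukocyte markers, PTPRC was counted at a mean of 16.6 CPM and LYZ at 0.45 CPM. The libraries are bulk RNA, in which fewer cells of a type and less RNA per cell cannot be told apart.

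Alpha and beta tubulin join as a heterodimer, and heterodimers polymerise end to end into the protofilaments of a microtubule, which forms the mitotic spindle and the tracks of intracellular transport. The proteins of a family are nearly identical over their folded body and differ mostly in the acidic carboxy-terminal tail. That tail faces outward, carries the glutamate side chains to which enzymes of the TTLL family add further glutamates, and in most alpha tubulins ends in a tyrosine that is removed by vasohibins and restored by tubulin tyrosine ligase (TTL). Cells also tune tubulin mRNA to the amount of free tubulin: TTC5 reads the start of the nascent chain on the ribosome and, through SCAPER and the CCR4-NOT subunit CNOT11, has the message degraded.

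The last 60 coding bases of TUBA4A and of the 6 beta genes, stop codon included, are shown because they hold the tail in which most of these isotypes differ. They were read from GRCh38 on the coding strand of the canonical transcript in GENCODE release 44, each within a single exon. Capitals mark the glutamate codons GAA and GAG.
TUBA4A: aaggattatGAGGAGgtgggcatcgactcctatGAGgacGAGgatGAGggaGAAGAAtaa
TUBB: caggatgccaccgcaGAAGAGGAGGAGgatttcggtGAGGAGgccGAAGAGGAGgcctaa
TUBB2A: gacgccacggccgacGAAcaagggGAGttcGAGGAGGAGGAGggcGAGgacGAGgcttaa
TUBB2B: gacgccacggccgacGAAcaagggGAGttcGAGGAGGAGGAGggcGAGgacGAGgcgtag
TUBB3: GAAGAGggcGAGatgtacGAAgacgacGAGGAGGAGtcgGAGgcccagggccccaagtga
TUBB4B: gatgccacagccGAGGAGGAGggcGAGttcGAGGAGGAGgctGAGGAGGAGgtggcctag
TUBB6: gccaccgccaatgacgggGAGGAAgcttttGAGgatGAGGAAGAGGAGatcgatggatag

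The TUBA4A tail lay at chr2:219250352-219250411 on the minus strand. The beta tails lay at chr6:30724338-30724397 on the plus strand (TUBB), chr6:3153863-3153922 and chr6:3224751-3224810 on the minus strand (TUBB2A and TUBB2B), chr16:89935745-89935804 (TUBB3), chr9:137243497-137243556 (TUBB4B) and chr18:12326071-12326130 (TUBB6), the last 3 on the plus strand. TUBB2A and TUBB2B differed in the tail only in their final sense and stop codons. Both final sense codons (gct and gcg) encode alanine, so these genes encode the same tail peptide. Of the 19 sense codons shown, glutamate took 7 in TUBA4A and 7 to 10 in the beta genes, with the most in TUBB4B. The last sense codon of TUBA4A was a glutamate codon (GAA), so that it encodes no terminal tyrosine. At the other end, the first 12 coding bases, the stretch that codes for the peptide TTC5 reads, were atgcgtgaatgc in TUBA4A. In the beta genes they were atgagggaaatc (TUBB and TUBB4B), atgagggagatc (TUBB3 and TUBB6), atgcgcgagatc (TUBB2A) and atgcgtgagatc (TUBB2B).

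How far the sequences resemble each other decides how far a read can be given to 1 gene. Coding sequences of alpha genes were 84.4% to 97.2% identical to each other (median 90.8% over 6 pairs), those of beta genes 80.9% to 98.1% (median 86.1% over 15 pairs), and alpha against beta 52.7% to 55.2%. The closest pairs were TUBB2A with TUBB2B at 98.1%, TUBA1A with TUBA1B at 97.2% and TUBA1B with TUBA1C at 96.8%. Of all stretches of 31 coding bases, 71.8% in TUBA1A, 79.0% in TUBA1B and 71.6% in TUBA1C recurred in another of the 10 genes. The split of reads among these 3 neighbours on chromosome 12 may therefore be uncertain, and how reads were assigned among them was not tested. TUBB shared 0.92% of its stretches with the other 9 genes. However, 55.3% of them recurred in tubulin genes or pseudogenes outside the 10, and its last 150 coding bases had 7 exact copies on alternate contigs of the assembly, a property of none of the other 9. Few counts lay on those relatives: 7 of 50 annotated alpha and beta pseudogenes had 18 counts in all and 7 of 11 further alpha and beta genes had 69, beside 7380 on the 10 genes. Counts on identifiers absent from GENCODE release 44, alternate contigs included, were not analysed here.

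The authors kept secondary alignments, so that 1 read can be counted on more than 1 transcript of a gene. The 3 most counted of the 8 counted TUBA1B transcripts had nearly equal counts. Its canonical transcript ENST00000336023 had 560, 205 and 260 counts with SGC-CLK-1 and 285, 400 and 203 with DMSO. The transcript with a retained intron, ENST00000332858, had 548, 210 and 254 counts with SGC-CLK-1 and 283, 393 and 201 with DMSO, which was 97.7% to 102% of the canonical count in every library. The transcript annotated for nonsense-mediated decay, ENST00000547765, had 513, 188 and 245 counts with SGC-CLK-1 and 255, 366 and 184 with DMSO, 89.5% to 94.2% of the canonical count. The 3 moved together from library to library. The retained intron transcript holds 97.9% of the stretches of 31 bases of the canonical one, beside the intron. Counts were also close, over all libraries, for the retained intron transcripts ENST00000604929 of TUBB4B (89.7% of the canonical count) and ENST00000417736 of TUBB6 (97.9%), and for ENST00000392088 of TUBA4A (96.7%). In TUBB, by contrast, the transcripts next in count, ENST00000396384 and ENST00000330914, held 15.5% and 13.9% of the count of ENST00000327892, although 91.7% and 91.5% of its stretches of 31 bases recur in them. A gene sum was therefore 2.93 times its most counted transcript in TUBA1B and 2.80 times in TUBA1C, but 1.43 times in TUBB and 1.23 times in TUBA1A. Gene sums compare a gene between libraries, whereas levels between genes also carry these unequal ratios.

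**Figure D1:**
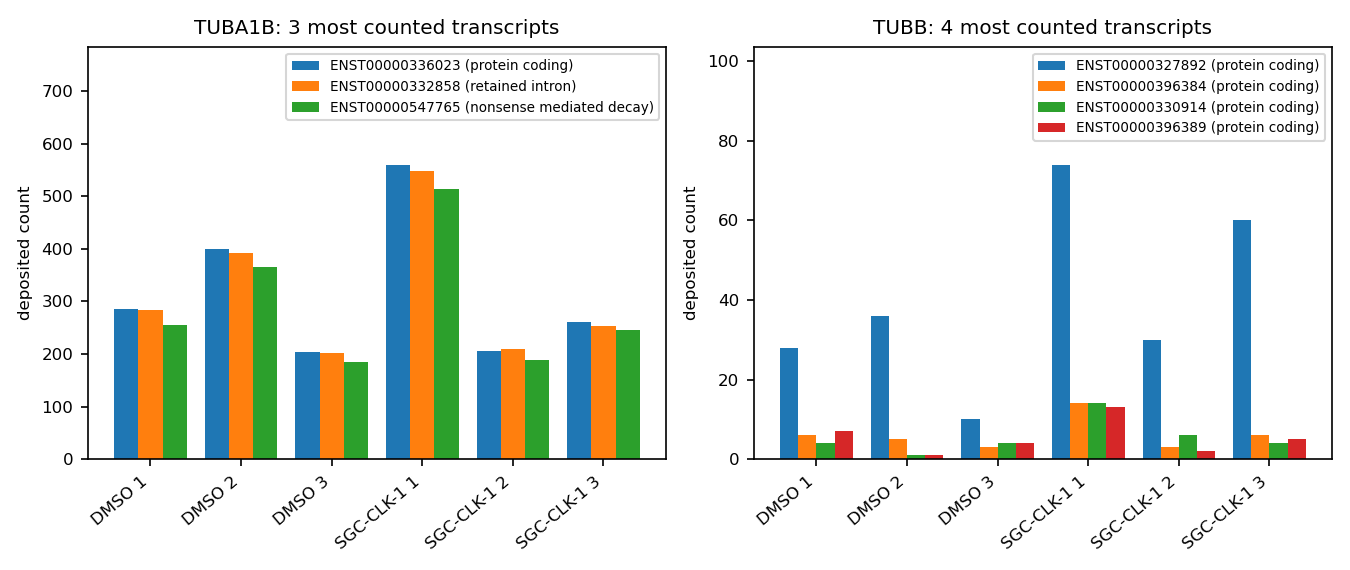
Deposited counts (y axis) in each of the 6 libraries (x axis) for the 3 most counted transcripts of TUBA1B and the 4 most counted of TUBB, 1 bar per transcript. The TUBA1B bars stand at nearly equal height within each library, from 203 to 560 for the canonical transcript, whereas TUBB rests on ENST00000327892, at 10 to 74 counts.

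The 10 genes took 2145, 824 and 1022 counts in the SGC-CLK-1 libraries (0.322%, 0.227% and 0.274% of the total) and 1095, 1500 and 794 counts in the DMSO libraries (0.263%, 0.287% and 0.213%). Scaled, their sum was 3158, 2201 and 2655 CPM with SGC-CLK-1 and 2621, 2912 and 2281 CPM with DMSO, and the groups overlapped. On a scale corrected for transcript length (TPM over the matched transcripts, mean of 6 libraries), TUBA1B stood first at 2061, from 1545 to 2517. TUBA1A followed at 213 (172 to 253), then TUBB4B at 142 (119 to 181), TUBB6 at 125 (105 to 151), TUBA1C at 109 (82.0 to 140) and TUBB at 98.9 (42.6 to 164). TUBB3 at 34.1 (14.4 to 75.6), TUBA4A at 20.6 (9.52 to 39.2), TUBB2B at 4.45 (0 to 11.3) and TUBB2A at 3.50 (0 to 10.3) came last. The range of TUBA1B lay apart from all others. From TUBA1A down, each gene's range over the libraries overlapped that of the next. Within libraries, however, TUBA1A was above TUBB4B, TUBB above TUBB3 and TUBA4A above TUBB2B in 6 of 6. The other neighbours in this order changed places in 1 or more libraries: TUBB4B was above TUBB6, TUBB6 above TUBA1C and TUBB3 above TUBA4A in 5 of 6, and TUBA1C above TUBB and TUBB2B above TUBB2A in 3 of 6. TUBA1B alone gave 5596 of the 7380 tubulin counts, or 75.8%. The order and this share rest on gene sums, which hold the unequal ratios given above. By the most counted transcript of each gene, in counts per kilobase over the 6 libraries, TUBA1B stood at 1176, TUBA1A at 223, TUBB4B at 112, TUBB at 94.6, TUBB6 at 50.0 and TUBA1C at 32.6, so that TUBB moved ahead of TUBB6 and TUBA1C. TUBA1B was then 1913 of 2954 counts, or 64.8%.

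TUBA1B, the main alpha tubulin of proliferating cells, did not differ detectably between the groups. Its gene sum was 2408, 1629 and 1972 CPM with SGC-CLK-1 and 1982, 2277 and 1695 CPM with DMSO. These ranges overlapped, the log2 fold change (SGC-CLK-1 over DMSO) was 0.016 ± 0.19 (SE, n = 3 libraries each), and its 95% interval reached from -0.40 to 0.43 (edgeR's quasi-likelihood test, adjusted p = 0.98). Its sign turned when SGC-CLK-1 replicate 1 or DMSO replicate 3 was left out, at -0.15 and -0.095. The 3 transcripts of TUBA1B that were tested had log2 fold changes of 0.088 to 0.118, each with an adjusted p above 0.8.

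TUBA1A, the alpha tubulin prominent in developing neurons, had the other pattern: each SGC-CLK-1 library was below each DMSO library, though by little. The sums were 169, 155 and 132 CPM with SGC-CLK-1 and 172, 177 and 210 CPM with DMSO. The log2 fold change was -0.28 ± 0.23 (SE, 95% interval -0.76 to 0.21, adjusted p = 0.65), which did not pass the test. For its canonical transcript ENST00000301071, with 95, 47 and 46 counts against 60, 76 and 49, it was -0.08 ± 0.22 (adjusted p = 0.90), and the groups overlapped by total count and by the TMM scaling of the transcript fit, though not by that of the gene fit. The log2 fold change of this transcript ranged from -0.14 to -0.0078 with 1 library left out. ENST00000295766, the next in count, had 34 counts over the 6 libraries and was not tested.

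TUBA1C, the third gene of the chromosome 12 cluster, stood at 124, 77.5 and 112 CPM with SGC-CLK-1 and 88.6, 69.9 and 83.3 CPM with DMSO. The groups overlapped and the log2 fold change of 0.39 ± 0.28 (SE, 95% interval -0.22 to 1.00, adjusted p = 0.59) did not pass the test. It was 0.23 without SGC-CLK-1 replicate 1, the lowest of 0.23 to 0.55 with 1 library left out. Its canonical transcript ENST00000301072 had 30, 11 and 15 counts with SGC-CLK-1 and 12, 14 and 10 with DMSO, which did not overlap once scaled (0.53 ± 0.34, adjusted p = 0.44), and ENST00000541364, at 26, 8 and 12 against 10, 10 and 9 counts, was not tested. TUBA4A, the alpha tubulin made without the final tyrosine, had 14, 7 and 6 counts with SGC-CLK-1 and 8, 21 and 4 with DMSO, of which ENST00000248437 held 7, 3 and 3 against 4, 11 and 2. At this depth it did not pass the filter on low counts and was not tested.

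TUBB, the most widely expressed beta tubulin, was the single member with a called difference, and the call held for a transcript and not for the gene sum. Its canonical transcript ENST00000327892 lies at chr6:30720352-30725422 on the plus strand and has 4 exons. It had 74, 30 and 60 counts with SGC-CLK-1 and 28, 36 and 10 with DMSO. Scaled to library size, every SGC-CLK-1 library lay above every DMSO library. Its log2 fold change was 1.09 ± 0.30 (SE, n = 3 each, edgeR's quasi-likelihood test, adjusted p = 0.032 over 7840 transcripts). DMSO replicate 3, with 10 counts, was the lowest by far. The call was held under 6 of 12 alternatives and lost under the other 6, with log2 fold changes from 0.78 to 1.31 and adjusted p from 0.021 to 0.18. It was lost in DESeq2's Wald test (adjusted p = 0.065), with no filter on low counts (0.060), and without SGC-CLK-1 replicate 1 (0.062), SGC-CLK-1 replicate 3 (0.18), DMSO replicate 1 (0.063) or DMSO replicate 3 (0.14). Over all 4 counted transcripts, TUBB stood at 169, 110 and 195 CPM with SGC-CLK-1 and 108, 83.5 and 60.3 CPM with DMSO, again without overlap but with SGC-CLK-1 replicate 2 just above DMSO replicate 1. The log2 fold change of the sum was 0.91 ± 0.30 (SE, 95% interval 0.27 to 1.55, unadjusted p = 0.0084 in edgeR), and its adjusted p of 0.17 over 6344 genes was above the threshold. Of 14 alternatives for the sum, only the one that counts each gene by its most counted transcript passed, with 1.06 and an adjusted p of 0.034. That alternative was chosen after seeing the data.

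TUBB4B, the beta tubulin with the most glutamate codons in its tail, had 135, 96.2 and 96.1 CPM with SGC-CLK-1 and 120, 148 and 118 CPM with DMSO. SGC-CLK-1 replicate 1 lay among the DMSO libraries and the other 2 below them, with a log2 fold change of -0.22 ± 0.26 (SE, 95% interval -0.78 to 0.34, adjusted p = 0.77). TUBB6, a divergent beta tubulin, had 103, 80.1 and 70.1 CPM with SGC-CLK-1 and 108, 87.4 and 86.2 CPM with DMSO, with overlap and a log2 fold change of -0.13 ± 0.28 (SE, 95% interval -0.73 to 0.47, adjusted p = 0.88). With 1 library left out, TUBB4B ranged from -0.43 to -0.098 and TUBB6 from -0.33 to -0.026. Neither passed the test, and both intervals reach past 0 on either side. The transcripts ENST00000340384 and ENST00000604929 of TUBB4B were at -0.19 ± 0.27 and -0.05 ± 0.28, and ENST00000317702 and ENST00000417736 of TUBB6 both at -0.10 ± 0.34 (SE, adjusted p of 0.77 or more).

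The other 3 beta genes were too low to be tested. TUBB3, the beta tubulin known as a neuronal marker, had 10, 13 and 21 counts with SGC-CLK-1 and 8, 9 and 5 with DMSO, or 14.7, 34.7 and 54.6 CPM against 19.1, 17.5 and 14.4 CPM. Replicate 1 labelled SGC-CLK-1 lay within the DMSO values and the other 2 above them. Its counts were spread over ENST00000315491 (4, 5 and 7 against 3, 3 and 2) and ENST00000554444 (4, 4 and 7 against 3, 3 and 3). TUBB2A had 2, 0 and 1 counts with SGC-CLK-1 and 0, 4 and 1 with DMSO, all on ENST00000333628. TUBB2B had 7, 0 and 2 against 2, 2 and 0, on ENST00000259818 (4, 0 and 1 against 1, 1 and 0) and ENST00000473006 (3, 0 and 1 against 1, 1 and 0). A count of 0 allows up to 3 counts, or 8.01 CPM in SGC-CLK-1 replicate 2, 7.18 CPM in DMSO replicate 1 and 8.62 CPM in DMSO replicate 3, so neither gene could be compared at this depth, and reads may be split between these near-identical copies. Such limits, like the intervals of shares, cover counting error only.

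**Figure D2:**
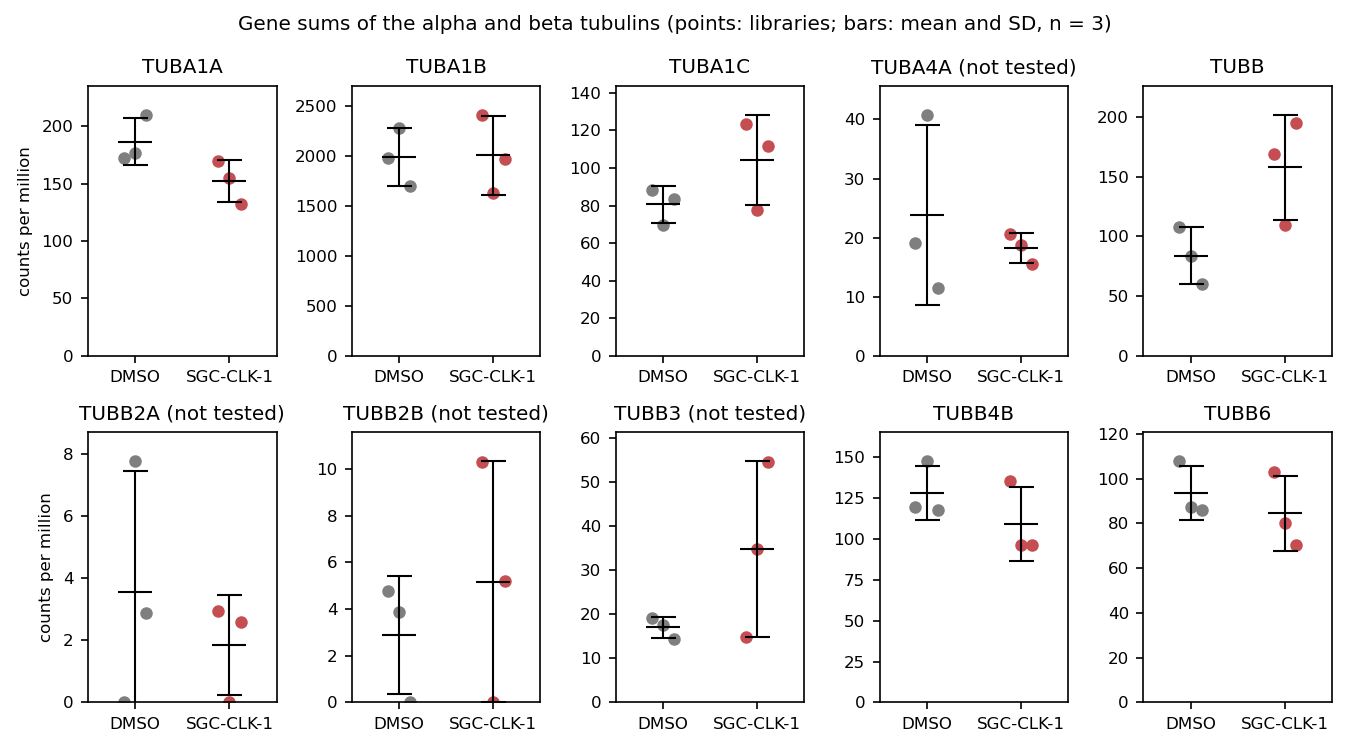
Gene sums in CPM (y axis, from 0, own scale per gene) for the 10 tubulin genes in the DMSO and SGC-CLK-1 libraries (x axis), with points for libraries and black bars for mean and SD (n = 3, cut off at 0). TUBB in the SGC-CLK-1 libraries lies between 110 and 195 CPM, above 60.3 to 108 CPM in the DMSO libraries, and TUBA1A lies slightly lower.

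Across the family, 6 genes and 10 transcripts passed the filter on low counts. Of the 6 genes, 0 were called at an adjusted p under 0.05 in edgeR, beside 0.236% of all genes (0.11% called higher), and 0 in DESeq2, beside 1.69% of all genes. At an unadjusted p under 0.05 it was 1 of 6 (TUBB), beside 13.9% of all genes, and 2 of 6 (TUBA1A and TUBB) had groups that did not overlap, beside 19.7% of all genes. The median log2 fold change of the 6 was -0.06, with 3 higher and 3 lower, against -0.0012 over all 6344 genes tested. Of the 10 transcripts, 1 was called (TUBB), beside 3.95% of all transcripts (1.85% called higher), and 3 (of TUBA1A, TUBA1C and TUBB) had groups that did not overlap, beside 23.5% (TUBA1A drops out by total count or by the scaling of the transcript fit). With so few members, these counts cannot be set apart from the background.

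**Figure D3:**
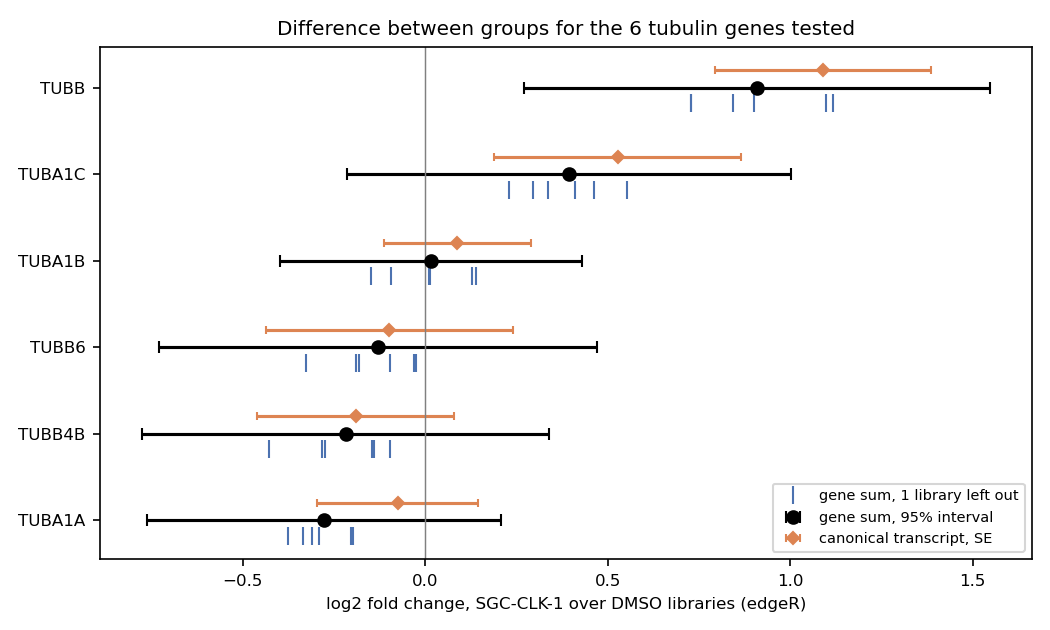
Log2 fold change of SGC-CLK-1 over DMSO libraries (x axis) for the 6 tubulin genes tested (y axis), with the gene sum and its 95% interval in black, the canonical transcript and its SE in orange, and the gene sum with 1 library left out as blue ticks. TUBB at 0.91 is the gene whose interval lies above 0, and the ticks of TUBA1B fall on both sides of 0.

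Because CDC-like kinase inhibition acts on splicing, the balance of transcripts within each gene was tested with edgeR's diffSpliceDGE. TUBA1B, TUBB4B and TUBB6 had more than 1 transcript past the filter and could be tested. None was called by the Simes test (unadjusted p = 0.98, 0.86 and 0.98, adjusted p = 1.00 each) or by the F test per gene (unadjusted p = 0.99, 0.68 and 0.96), beside 0.277% of 1805 genes called by the former. The transcripts compared had the close counts described above, though ENST00000604929 of TUBB4B ran from 70.8% to 100% of the canonical count by library. What reads counted more than once add to this closeness was not tested.

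The isotype balance was the share of each gene in the counts of its family. Among alpha tubulins, TUBA1B held 87.8% ± 1.02 (SD, n = 3) with SGC-CLK-1 and 87.1% ± 2.07 with DMSO, TUBA1A 6.80% ± 1.26 and 8.33% ± 1.90, TUBA1C 4.56% ± 0.443 and 3.60% ± 0.770, and TUBA4A 0.817% ± 0.157 and 1.00% ± 0.525. All 4 overlapped between the groups, with exact two-sided permutation p values of 0.2 to 0.8. The TUBA1A difference of -1.53 percentage points was -0.455 without DMSO replicate 3 and -3.04 with protein coding transcripts only. That of TUBA1C, 0.954 percentage points, was 0.515 without DMSO replicate 2 and 1.69 with protein coding transcripts only. By the most counted transcript of each gene, TUBA1C did not overlap, at 4.34%, 4.14% and 4.63% with SGC-CLK-1 against 3.32%, 2.79% and 3.79% with DMSO (exact permutation p = 0.1), whereas the other 3 did.

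Among beta tubulins, TUBB took a larger share of the counts with SGC-CLK-1. It held 38.9%, 34.2% and 46.0% in the SGC-CLK-1 libraries, with Wilson 95% intervals of 33.5% to 44.5%, 26.3% to 43.0% and 38.5% to 53.7%. In the DMSO libraries it held 30.0%, 24.0% and 21.4%, with intervals of 23.2% to 37.8%, 18.4% to 30.8% and 14.5% to 30.5%. These intervals treat every count as a separate molecule and are too narrow where a read was counted more than once. The means were 39.7% ± 5.97 (SD, n = 3) and 25.2% ± 4.40, a difference of 14.5 percentage points. The exact two-sided permutation test gave p = 0.1, the smallest that 3 libraries against 3 allow (0.333 adjusted over the 10 isotypes), so no share could pass 0.05. TUBB4B held 31.1%, 30.0% and 22.7% with SGC-CLK-1 and 33.3%, 42.5% and 41.8% with DMSO, lower by 11.3 percentage points (27.9% against 39.2%, exact permutation p = 0.1). TUBB6 held 23.6%, 25.0% and 16.6% against 30.0%, 25.1% and 30.6%, a drop in the mean from 28.6% to 21.7% (exact permutation p = 0.1) in which SGC-CLK-1 replicate 2 and DMSO replicate 2 all but met. That difference of -6.85 percentage points was -4.26 without SGC-CLK-1 replicate 3. Shares of a family sum to 100%, so the higher share of TUBB and the lower shares of TUBB4B and TUBB6 are not separate results. By the most counted transcript of each gene, TUBB held 51.4% ± 8.0 against 30.98% ± 8.42 and TUBB4B 26.0% ± 5.17 against 41.3% ± 8.84, again without overlap, whereas TUBB6 overlapped (14.9% ± 4.30 against 21.2% ± 3.51, exact permutation p = 0.2). TUBB3 held 3.38%, 10.8% and 12.9% with SGC-CLK-1 and 5.33%, 5.03% and 5.10% with DMSO (exact permutation p = 0.4). Its difference of 3.88 percentage points was 6.70 without SGC-CLK-1 replicate 1 and 1.95 without SGC-CLK-1 replicate 3.

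**Figure D4:**
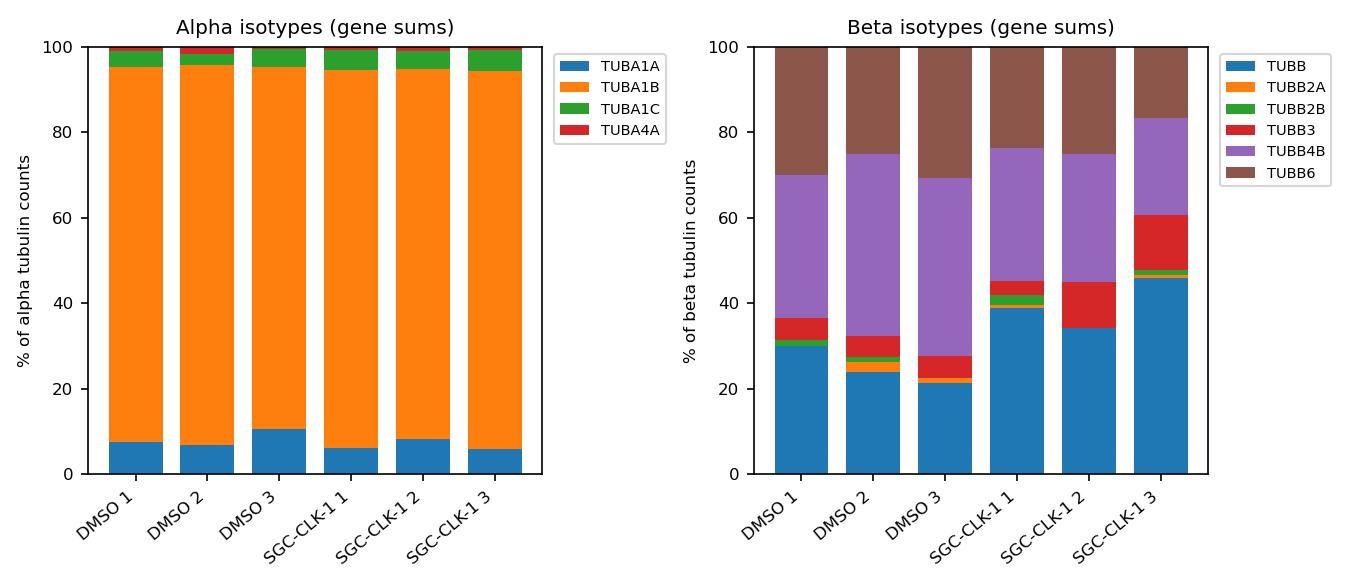
Share of each isotype (stacked, y axis, percent of the counts of its family, gene sums) in the 6 libraries (x axis) for alpha and beta tubulins. TUBA1B fills 84.8% to 88.8% of every alpha bar, and TUBB takes 34.2% to 46.0% of the beta bars in the SGC-CLK-1 libraries against 21.4% to 30.0% in the DMSO libraries.

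The 2 families were far from equal in counts. Alpha tubulin made up 86.2%, 85.4% and 84.1% of alpha plus beta counts with SGC-CLK-1 and 86.3%, 88.1% and 87.7% with DMSO, where SGC-CLK-1 replicate 1 lay just under DMSO replicate 1. By the most counted transcript of each gene it was 81.6%, 80.4% and 76.6% against 82.4%, 83.1% and 84.9%. The difference in means was -2.11 and -3.94 percentage points in these 2 countings, lower in each SGC-CLK-1 library, and is given as a description without a test. Beta counts include TUBB, so the lower alpha share is not a result separate from the higher TUBB counts.

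Genes that make, fold, mark and nucleate tubulin were read from the same fit, in which 13.9% of all genes had an unadjusted p under 0.05. Of the 13 other tubulin genes, 11 were counted and 2 tested. TUBD1, the delta tubulin of centrioles, stood at 102, 90.8 and 107 CPM with SGC-CLK-1 and 47.9, 50.5 and 46.0 CPM with DMSO. Its groups lay far apart in comparison with their spread, but the log2 fold change of 1.05 ± 0.29 (SE) had an adjusted p of 0.12 (unadjusted p = 0.0026). TUBG1, the gamma tubulin that nucleates microtubules, overlapped at -0.60 ± 0.38 (SE, adjusted p = 0.53). Of 12 tubulin folding cofactors and prefoldin subunits, which bring new tubulin to and from the chaperonin, 9 were tested, 2 higher and 7 lower with a median of -0.18, and 0 had an unadjusted p under 0.05. The most abundant were the prefoldin subunits VBP1 at -0.10 ± 0.21 and PFDN5 at -0.18 ± 0.28 (SE). Those with the smallest p were PFDN1, another prefoldin subunit, at -0.79 ± 0.38 (adjusted p = 0.37) and TBCB, an alpha tubulin cofactor, at -0.87 ± 0.48 (adjusted p = 0.45).

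Of the 3 genes of tubulin mRNA autoregulation, 2 were tested. SCAPER had 97.2, 163 and 132 CPM with SGC-CLK-1 and 239, 231 and 161 CPM with DMSO, and SGC-CLK-1 replicate 2 overlapped DMSO replicate 3. Its log2 fold change of -0.71 ± 0.26 (SE) had an adjusted p of 0.23. TTC5 was at 0.17 ± 0.50 (SE, adjusted p = 0.92). Of 16 tubulin modifying enzymes, 6 were tested, 4 higher and 2 lower with a median of 0.43, and 0 had an unadjusted p under 0.05. TTL, the ligase that restores the tyrosine, was at -0.08 ± 0.29, the glutamylase TTLL5 at 0.70 ± 0.38 and the deglutamylase AGTPBP1 at 1.45 ± 0.76 (SE, adjusted p = 0.43), the last with counts of 39, 5 and 30 against 10, 0 and 12.

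Of 22 subunits and partners of the gamma-tubulin ring and augmin complexes, from which new microtubules grow, 17 were tested, 6 higher and 11 lower with a median of -0.19. Of these, 1 had an unadjusted p under 0.05 (beside 13.9% of all genes), AKAP9, a scaffold of the ring complex at the Golgi and centrosome, at -0.58 ± 0.27 (SE, adjusted p = 0.35). The next by p was HAUS6, an augmin subunit, at 30.9, 21.4 and 20.8 CPM against 31.1, 44.7 and 48.8 CPM (-0.73 ± 0.43, SE, adjusted p = 0.49). The other abundant gene was CDK5RAP2, an activator of the ring complex, at -0.19 ± 0.32 (adjusted p = 0.84).

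Of 29 microtubule-associated and dynamics proteins, 19 were tested, 8 higher and 11 lower with a median of -0.21, and 4 had an unadjusted p under 0.05, beside 13.9% of all genes. STMN1, which sequesters tubulin dimers, was the most abundant, at 882, 732 and 774 CPM with SGC-CLK-1 and 1343, 1068 and 1554 CPM with DMSO. Its groups did not overlap, with a log2 fold change of -0.72 ± 0.19 (SE, unadjusted p = 0.0019), and the adjusted p of 0.10 missed the threshold in edgeR, whereas DESeq2's Wald test called it (adjusted p = 0.019). TPX2, a spindle assembly factor, had 253, 230 and 200 CPM against 345, 384 and 353 CPM, also without overlap, at -0.66 ± 0.20 (SE, adjusted p = 0.14). The other 2, named after their values were seen, were CAMSAP1 and KATNA1. CAMSAP1, a minus-end binding protein, had 27, 17 and 17 counts with SGC-CLK-1 and 0, 2 and 9 with DMSO, at 2.23 ± 0.74 (SE, adjusted p = 0.18). The severing enzyme KATNA1 was at 1.00 ± 0.46 (SE, adjusted p = 0.35), and MAP1B, the other abundant gene of the list, at -0.24 ± 0.21 (adjusted p = 0.67). In edgeR, 0 genes of these lists were called, beside the 0.236% of all genes, and DESeq2 called 1, STMN1, beside its 1.69% of all genes.

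**Figure D5:**
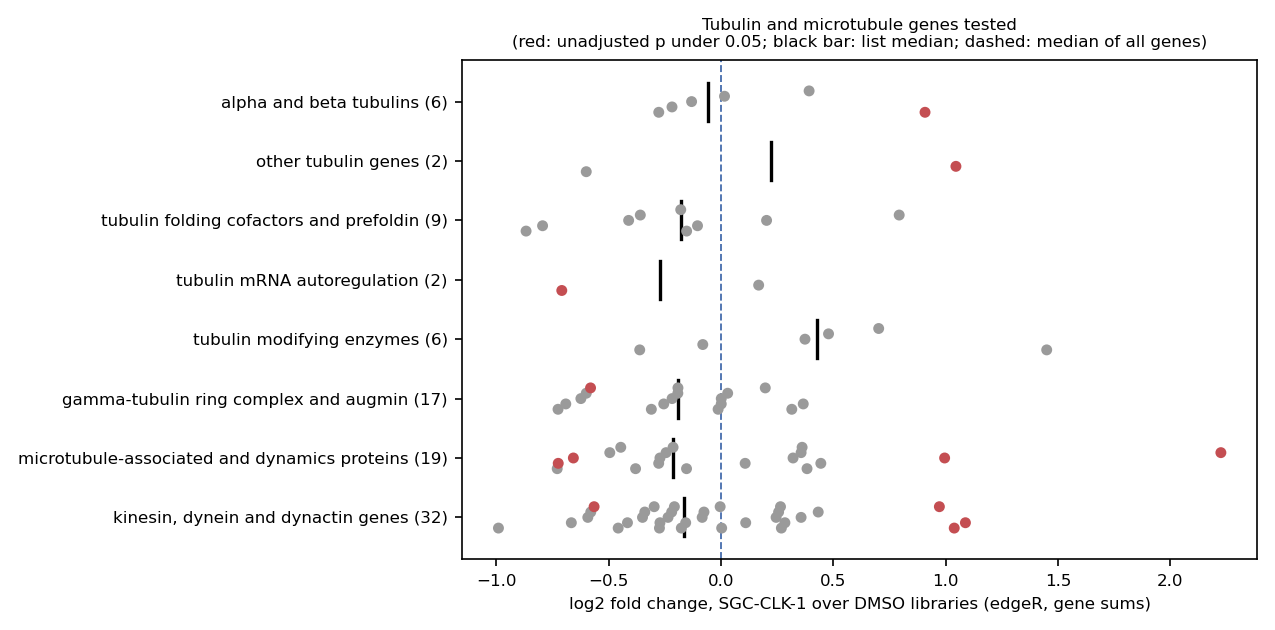
Log2 fold change of SGC-CLK-1 over DMSO libraries (x axis) for the genes tested in each list (y axis, number tested in brackets), with unadjusted p under 0.05 in red, the list median as a black bar and the median of all genes dashed. TUBB at 0.91 and TUBD1 at 1.05 lie to the right, STMN1 at -0.72 to the left and CAMSAP1 at 2.23 farthest right.

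The genes whose log2 CPM followed the summed tubulins most closely over the 6 libraries were PHGDH, the first enzyme of serine synthesis (Pearson r = 0.995), EIF3D, a translation initiation factor (0.975), NCLN (0.969), BCLAF3 (0.967) and PDIA5 (0.959). Of 6338 genes compared, 19 had r above 0.9. The 6 points share their libraries and depths, and the sum is mostly TUBA1B, so these values describe the libraries alone.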

How the data were processed

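RM82 RNA was converted to cDNA with UMIs and sequenced on a PromethION. The authors mapped reads to human transcripts with minimap2, version 2.22 in the submitters' processing notes and a later one in the published methods. They kept secondary alignments, removed duplicate UMIs and deposited raw counts per transcript, without normalization. Whether homotrimer correction or UMI-tools made these counts is not given in the sources used here, and while reads were oriented by their poly(A) stretch, whether counting used the strand is not stated. A transcript not listed in a library was given 0. Identifiers without version were paired with GENCODE release 44 (86362 of 93530 matched), which gave the symbols, and summed to genes.

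Differences were fitted by edgeR 4.0.16 under R 4.3.3. Low counts were removed by filterByExpr (minimum count 10, minimum total 15), libraries were scaled by TMM, and the p of the quasi-likelihood test was adjusted after Benjamini and Hochberg over all features tested, with a threshold of 0.05. Of 18776 genes 6344 were tested, with a biological coefficient of variation of 0.244, and of transcripts 7840, with 0.169. CPM divide by the total count and the TMM factor of the gene fit. DESeq2 1.42.0 was an alternative. Shares were compared by exact permutation tests (Python 3.11.15, scipy 1.17.1). Functions were tested on simulated data. The members and gene lists were chosen with earlier results of these data known. Named are the 10 members, the 2 most counted transcripts of each and those called, and in each list the 2 most abundant genes and the 2 with the smallest p, beside any called. For the list of other tubulin genes these are the 2 genes tested. Alternatives were other scalings, filters on low counts, protein coding transcripts alone, each gene's most counted transcript, a wider denominator of shares, leaving out each library and the replicate number as a block. Other files of the series were not used here. Some sequences and 1 marker gene are not reported here.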

Additional observations from a re-analysis of the deposited data

How the results depend on the processing

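Counts of calls moved with the processing. Genes called were 15 in the fit reported, 28 with library size only, 169 with no filter on low counts, 64 with at least 10 counts in every library, 36 with the replicate block, 107 in DESeq2, 148 by the most counted transcript (chosen after seeing the data) and 0 with protein coding transcripts only (724 at an unadjusted p under 0.05), and 1 to 21 with 1 library left out. Transcripts called were 310, against 162 with no filter, 173 with the strict filter, 113 in DESeq2, 427 with the replicate block and 81 to 363 with 1 library left out. Genes with changed usage were 5, against 1 with the strict filter and 1 to 5 with 1 library left out. Deviations of same-numbered libraries from their group means correlated little (r = 0.059, 0.093 and -0.0018). Libraries of unlike number were not compared in this way, so whether the numbers mark a pairing or batch was not tested. The replicate block in edgeR gave TUBB an adjusted p of 0.19 (gene sum) and 0.021 (ENST00000327892). With 1 library left out, log2 fold changes near 0 crossed it: TUBA1B from -0.15 to 0.14, its transcripts ENST00000336023 from -0.057 to 0.24, ENST00000332858 from -0.051 to 0.23 and ENST00000547765 from -0.024 to 0.28, ENST00000604929 of TUBB4B from -0.27 to 0.12, and ENST00000317702 and ENST00000417736 of TUBB6 from -0.26 to 0.10 and from -0.25 to 0.077. So did share differences of TUBA1B (-0.379 to 1.63 percentage points), TUBA4A (-0.401 to 0.106) and TUBB2B (-0.203 to 0.979). TUBB's share difference lay between 11.4 and 20.4 percentage points in 9 alternatives. The alpha share difference of -2.11 was -4.27 with protein coding transcripts only and -3.94 by the most counted transcript. The cause of these shifts was not tested. Depth limits TUBA4A, TUBB2A, TUBB2B and TUBB3, which did not pass the filter on low counts in the fit reported.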

Other observations

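The motors that walk on microtubules were looked at after the other lists, as a group chosen after seeing the data. Of 58 kinesin, dynein and dynactin genes, 32 were tested, 12 higher and 20 lower with a median log2 fold change of -0.17, and 4 had an unadjusted p under 0.05 in edgeR, 3 higher and 1 lower, beside 13.9% of all genes, with 0 called, beside 0.236% of all genes. KIF1B, a motor of vesicle and mitochondrial transport, had 138, 85.5 and 156 CPM with SGC-CLK-1 and 55.1, 62.1 and 68.9 CPM with DMSO, without overlap, at 1.04 ± 0.30 (SE, adjusted p = 0.13). DYNC1LI2, a light intermediate chain of cytoplasmic dynein, had 76.6, 104 and 64.9 CPM against 43.1, 29.1 and 54.6 CPM, at 0.97 ± 0.35 (SE, adjusted p = 0.22). DYNC2LI1, a light intermediate chain of the ciliary dynein, was at 1.09 ± 0.45 and KIF3A, a kinesin-2 motor, at -0.56 ± 0.26 (SE, adjusted p = 0.30 and 0.35), both with overlap. DESeq2 called 0 of the list, beside 1.69% of all genes. The most abundant were DYNC1I2, a dynein intermediate chain, at -0.27 ± 0.21 and the chromokinesin KIF22 at -0.21 ± 0.24 (SE, adjusted p = 0.61 and 0.76).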
